A study of Mus musculus with 11 samples.

Results

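The genes described here are 40 genes of ribosome biogenesis and RNA polymerase I (Pol I), chosen by symbol from the table of gene counts. All 40 were found among its 55291 symbols, and all 40 were among the 17183 genes whose counts were high enough to be tested. By role they comprised 5 genes of Pol I transcription, 5 of the t-UTP subcomplex, 4 of box C/D and 5 of box H/ACA small nucleolar ribonucleoproteins (snoRNPs), 7 of small and 10 of large subunit assembly, and 4 of abundant nucleolar proteins. RNA was taken from Lin-cKit+Sca-1+ (LSK) bone marrow cells, the fraction that holds haematopoietic stem cells and early progenitors, of C57BL/6 mice. The groups were Phf6R274X Tg (Tg, n = 4), Phf6 knock out (KO, n = 3) and wild type (WT, n = 4). The labels name individual mice as the source of the RNA, so each library is counted as 1 sample, and they give no age, sex, promoter of the transgene or extent of the deletion for any group.

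Pol I transcribes the ribosomal RNA precursor in the nucleolus, where the t-UTP proteins join the nascent transcript, snoRNPs guide its modification and assembly factors carry the small and large subunits to the cytoplasm. Blood stem cells are known for a low rate of protein synthesis, which rises as progenitors begin to divide and differentiate. Phf6, an X-linked gene, encodes a chromatin and nucleolar protein with plant homeodomain fingers. Mutations that disable it occur in human leukaemias, and the label R274X names a change of an arginine codon to a stop.

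Promoter sequence was available for 34 of the 40 genes in RefSeq (GRCm38.p6), as 250 bases before to 50 after the start of transcription, but not for Rrs1, Tcof1, Bop1, Rrp12, Fbl and Npm1. These promoters were searched for CACGTG, the E-box that the transcription factor Myc is known to bind, which reads the same on both strands. It occurred in 8 of the 34 genes (23.5%), against 8.09% of the 27025 genes with a promoter entry and 11.5% of the 11115 of them that were tested. The motif holds a CG, and the median observed to expected ratio of CG was 0.845 in the promoters of the 34 genes. It was 0.384 over all promoters and 0.730 over those of genes tested, and the shares are not adjusted for it. The following windows show every match with up to 12 bases on either side, 5′ to 3′ on the strand of the gene, with the motif in capitals.
Nop2: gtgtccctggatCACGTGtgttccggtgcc
Utp4: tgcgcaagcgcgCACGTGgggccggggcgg
Ltv1: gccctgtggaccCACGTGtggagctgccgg
Utp20: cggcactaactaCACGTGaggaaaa
Pes1: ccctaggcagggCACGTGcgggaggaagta
Tsr1: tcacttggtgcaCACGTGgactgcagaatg
Rrn3, first match: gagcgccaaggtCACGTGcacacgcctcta
Rrn3, second match: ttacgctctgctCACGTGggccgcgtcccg
Wdr43: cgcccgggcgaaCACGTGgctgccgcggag
The Nop2 window lay at chr6:125131811-125131840 on the plus strand and that of Utp4 at chr8:106893643-106893672 on the plus strand. The Ltv1 and Utp20 windows lay on the minus strand, at chr10:13193092-13193121 and chr10:88826765-88826789. On the plus strand lay those of Pes1 (chr11:3963965-3963994), Tsr1 (chr11:74898092-74898121), Rrn3 (chr16:13780472-13780501 and chr16:13780639-13780668) and Wdr43 (chr17:71616220-71616249). The motif lay upstream of the start in Nop2 and Rrn3 and downstream of it in the other 6 genes. In Tg against WT, the median fitted log2 fold change was 0.21 over the 8 genes with the motif (0.00 to 0.41) and 0.18 over the 26 without it (-0.09 to 0.62). In KO against WT these medians were 0.07 and 0.05. A match is a description of the letters and shows no binding.

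Library totals ran from 20990446 to 45632018 counts, and levels are given as CPM, counts scaled by library total and TMM factor (0.919 to 1.053). The upper limit for a gene with no count, 3 counts over the library total alone, was 0.0657 to 0.143 CPM and covers counting error only. Phf6 itself held 182.6 to 277.7 CPM in the Tg libraries, 15.4 to 24.0 in the KO libraries and 109.9 to 141.9 in the WT libraries, with no overlap between groups, and the counts do not separate a transgenic from an endogenous transcript. Kit averaged 768 ± 96.2 CPM in Tg, 610.1 ± 35.0 in KO and 729 ± 68.5 in WT, and Ly6a, which encodes Sca-1, 25.1 ± 4.48, 32.2 ± 9.98 and 25.6 ± 5.79 in that order. Xist, the RNA of the inactive X chromosome, lay at 0.0307 to 0.324 CPM in Tg, 32.6 to 41.1 in KO and 48.8 to 54.2 in WT. The summed level of Y-linked genes was 54.3 to 368 CPM in Tg. Both Xist and the Y-linked sum exceeded 10 CPM in KO replicate 1 and WT replicates 1, 2 and 4, where the Y-linked sum was 21.1 to 134 CPM. KO replicate 2 held 1.74 CPM of Y-linked reads beside Xist and was kept, while KO replicate 3 and WT replicate 3 held 0.0335 and 0.0634 CPM. Reads of both kinds in 1 library go against a label of 1 mouse, and whether such libraries hold material of more than 1 mouse was not tested. If they do, n counts libraries and not mice, and p-values measure the spread between libraries. Tg genotype and absence of Xist cannot be told apart. The counts of the 40 and the genes that passed in edgeR are also given without the 4 libraries over 10 CPM.

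The comparison of Tg with WT asked whether LSK cells of mice with the R274X transgene differ in these transcripts. Of the 40 genes, 37 had a fitted log2 fold change above 0, where 50.8% of all genes tested did, with a median of 0.20 and a range of -0.10 to 0.62. The median over all genes tested was 0.01. Rrp12, a small subunit export factor, and Nop10, a core box H/ACA protein, rose. No gene of the set fell (2.39% of all genes tested did), and the 2 that rose, 5% of the set, compare with 2.54% of all genes tested by edgeR's quasi-likelihood test with Benjamini-Hochberg adjustment. At an unadjusted p under 0.05 lay 13 of the 40, all higher in Tg, against 10.9% of all genes tested. In 4 genes (10%) all Tg libraries lay above all WT libraries, against 4.5% of all genes tested, and in none did they lie below, against 5.34%. The 40 genes vary together between libraries, as described further on, so these counts are not 40 separate observations. Without the 4 libraries that hold both Xist and Y-linked reads, WT rested on replicate 3 alone, the highest WT library for 33 of the 40 genes. In that fit 24 of the 40 lay above 0 and their median was 0.014, where the median over all genes tested was 0.027. That fit cannot tell the absence of those reads from the high level of that library. The number at an unadjusted p under 0.05 was 7 without Tg replicate 2 and 20 without Tg replicate 4. The share of all genes tested at that threshold was not counted in these fits. At adjusted p under 0.05, 181 and 322 of all genes tested were called higher there, against 436 with all libraries. The shift is thus not shown to be particular to the 40. In bulk RNA, a change in the share of a cell type and a change in RNA per cell cannot be told apart.

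**Figure D1:**
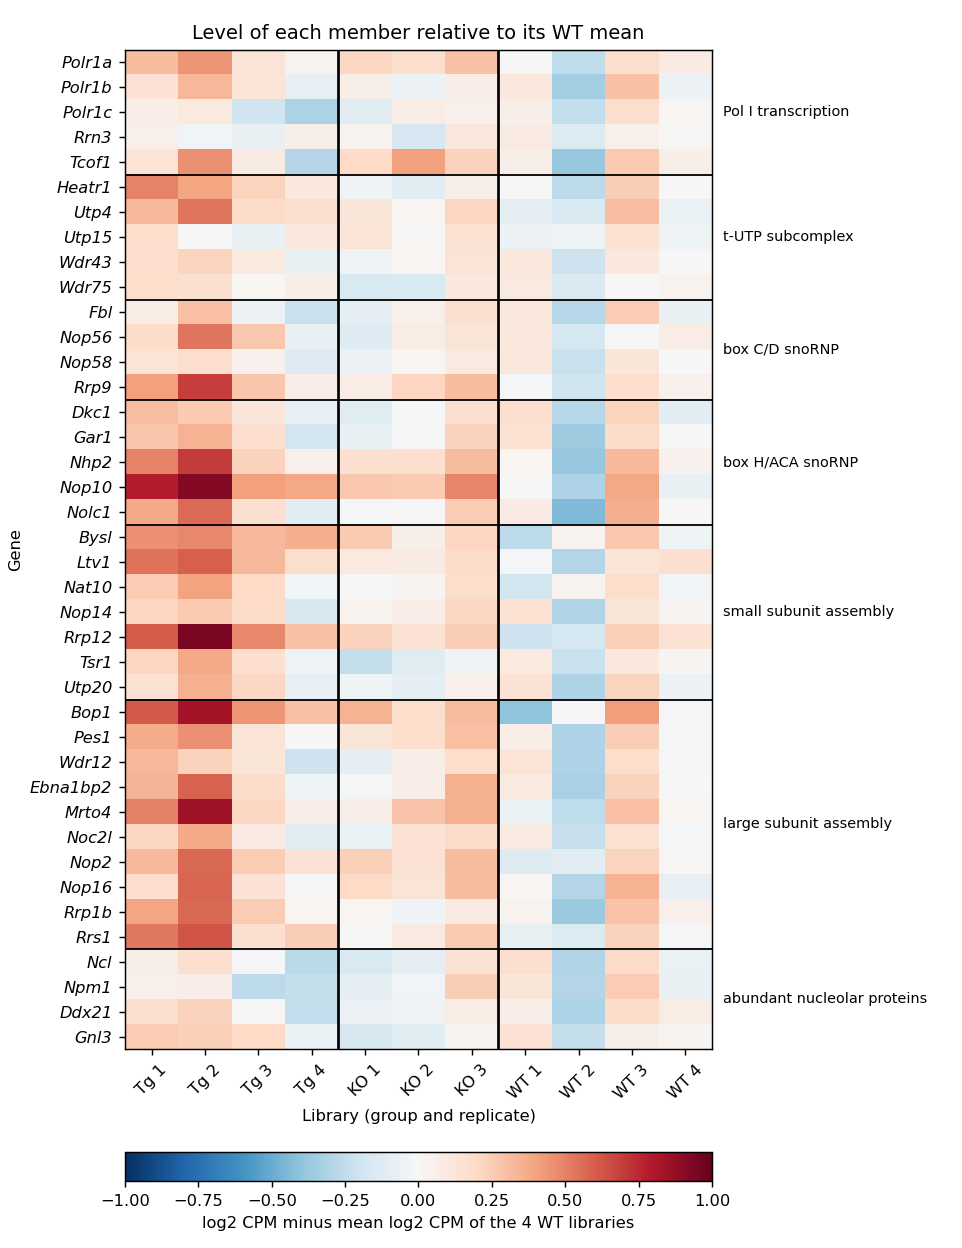
Colour shows the log2 CPM of each of the 40 genes (rows, by role) minus the mean log2 CPM of the 4 WT libraries, in each of the 11 libraries (columns, Tg, KO, WT), from blue (lower) to red (higher). Tg replicates 1 and 2 are red for most genes, Tg replicate 4 is near white, and WT replicate 2 is blue for most.

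Rrp12 lies at chr19:41862851-41896173 on the minus strand (GRCm38). It held 95.4, 119.8, 87.5 and 76.5 CPM in Tg, 73.3, 69.1 and 74.3 in KO and 54.1, 55.4, 73.9 and 69.3 in WT. Every Tg library lay above every KO and WT library, by a narrow margin for Tg replicate 4. Rrp12 rose in Tg against WT by 0.59 on the log2 scale (SE 0.139, with an adjusted p = 0.0369, quasi-likelihood test of edgeR). Its mean was 94.8 ± 18.4 CPM in Tg, 72.2 ± 2.72 in KO and 63.2 ± 9.93 in WT.

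Nop10 lies at chr2:112261926-112263269 on the plus strand and encodes the smallest of the core box H/ACA proteins. It held 113.8, 125.3, 87.7 and 86.5 CPM in Tg, 79.8, 79.4 and 92.6 in KO and 66.0, 53.5, 86.3 and 62.9 in WT. Tg replicate 4 and WT replicate 3 were nearly equal, and the other WT libraries lay well below all Tg libraries. Nop10 rose in Tg against WT by 0.62 (SE 0.156, with an adjusted p = 0.0458, quasi-likelihood test of edgeR), with means of 103.3 ± 19.3 CPM in Tg and 67.2 ± 13.8 in WT.

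Both calls were lost without any 1 of 8 libraries and kept without Tg replicate 3, Tg replicate 4 or WT replicate 3. The largest adjusted p from edgeR was 0.1005 for Rrp12 and 0.133 for Nop10, both without Tg replicate 1, and the log2 fold changes ran from 0.45 to 0.68 and from 0.52 to 0.76. The count of genes that rose was 7 without WT replicate 3, where 3.04% of all genes tested rose. It was 3 without Tg replicate 3 or without Tg replicate 4, where 3.62% and 1.89% of all genes tested rose. DESeq2 called 7 of the 40 higher, namely Rrp12, Nop10, Bysl, Ltv1, Bop1, Nop2 and Rrs1. It called 2.97% higher of 30397 genes, all those with any count, where edgeR tested 17183. The 30397 include any gene to which DESeq2 gave no adjusted p, so this share is not like that of edgeR. Without the 4 libraries with Xist and Y-linked reads, the log2 fold change in Tg against WT was 0.36 for Rrp12 (adjusted p = 0.595) and 0.26 for Nop10 (adjusted p = 0.707), both by edgeR with 1 WT library. No exons of another gene overlapped those of Rrp12 or Nop10 in the annotation.

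Among the 5 genes of Pol I transcription the median log2 fold change in Tg against WT was 0.10, and none had an unadjusted p under 0.05. Polr1a, the largest subunit of Pol I, held 188, 206, 165 and 155 CPM in Tg, 174, 171 and 186 in KO and 151, 127, 171 and 160.1 in WT. The groups overlapped, and the KO libraries lay inside the Tg range. Its log2 fold change was 0.23 in Tg against WT (SE 0.108, adjusted p = 0.241, quasi-likelihood test of edgeR) and 0.22 in KO against WT (SE 0.116, adjusted p = 0.741). They were 0.07 and 0.07 without the 4 libraries with Xist and Y-linked reads. Rrn3, which makes Pol I competent for initiation, averaged 97.3 ± 4.43 CPM in Tg, 96.9 ± 9.42 in KO and 97.2 ± 6.37 in WT. Polr1b, the second largest subunit, had a log2 fold change of 0.12 in Tg against WT, Tcof1, the treacle protein that binds rDNA and Pol I, 0.10, and Polr1c, a subunit shared with Pol III, -0.09. The largest KO value of the group was that of Tcof1, 0.26 in KO against WT (SE 0.170).

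The t-UTP genes, whose products act in both rDNA transcription and early processing, had a median of 0.10 in Tg against WT, with all 5 above 0. Heatr1, the mouse counterpart of yeast Utp10, held 279.9, 262, 232 and 214 CPM in Tg, 194, 184 and 208 in KO and 199.96, 166, 236 and 199 in WT. All Tg libraries exceeded all KO libraries, while WT replicate 3 lay inside the Tg range. Its log2 fold change was 0.30 in Tg against WT (SE 0.113, adjusted p = 0.146) and 0.34 in Tg against KO (SE 0.123, adjusted p = 0.131), both from the quasi-likelihood test of edgeR. They were 0.07 and 0.32 without the 4 libraries with Xist and Y-linked reads. Utp4, known from yeast as a t-UTP protein, had 0.30 in Tg against WT, and Wdr43, Wdr75 and Utp15, of the same subcomplex, had 0.10, 0.10 and 0.05.

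Of the box C/D genes, most of whose snoRNPs guide 2′-O-methylation, all 4 lay above 0 in Tg against WT, with a median of 0.15. Rrp9, a protein of the U3 snoRNP, held 31.3, 38.1, 28.6 and 24.7 CPM in Tg, 24.9, 27.5 and 29.4 in KO and 23.4, 20.6, 26.6 and 24.3 in WT. Tg replicates 1 to 3 exceeded every WT library and Tg replicate 4 did not. Its log2 fold change was 0.37 in Tg against WT (SE 0.133, adjusted p = 0.132, quasi-likelihood test of edgeR), and 0.21 without the 4 libraries with Xist and Y-linked reads. Nop56 and Nop58, scaffold proteins of the particle, had 0.24 and 0.05, and Fbl, the methyltransferase, had 0.02. The box H/ACA genes, whose snoRNPs guide pseudouridylation, had a median of 0.25 and all 5 lay above 0. Beside Nop10, Nhp2 of the core particle had 0.37 (SE 0.156), Nolc1, a chaperone of snoRNPs, 0.25, and Gar1 and the pseudouridine synthase gene Dkc1, which is X-linked, both 0.15. None of these 4 passed.

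**Figure D2:**
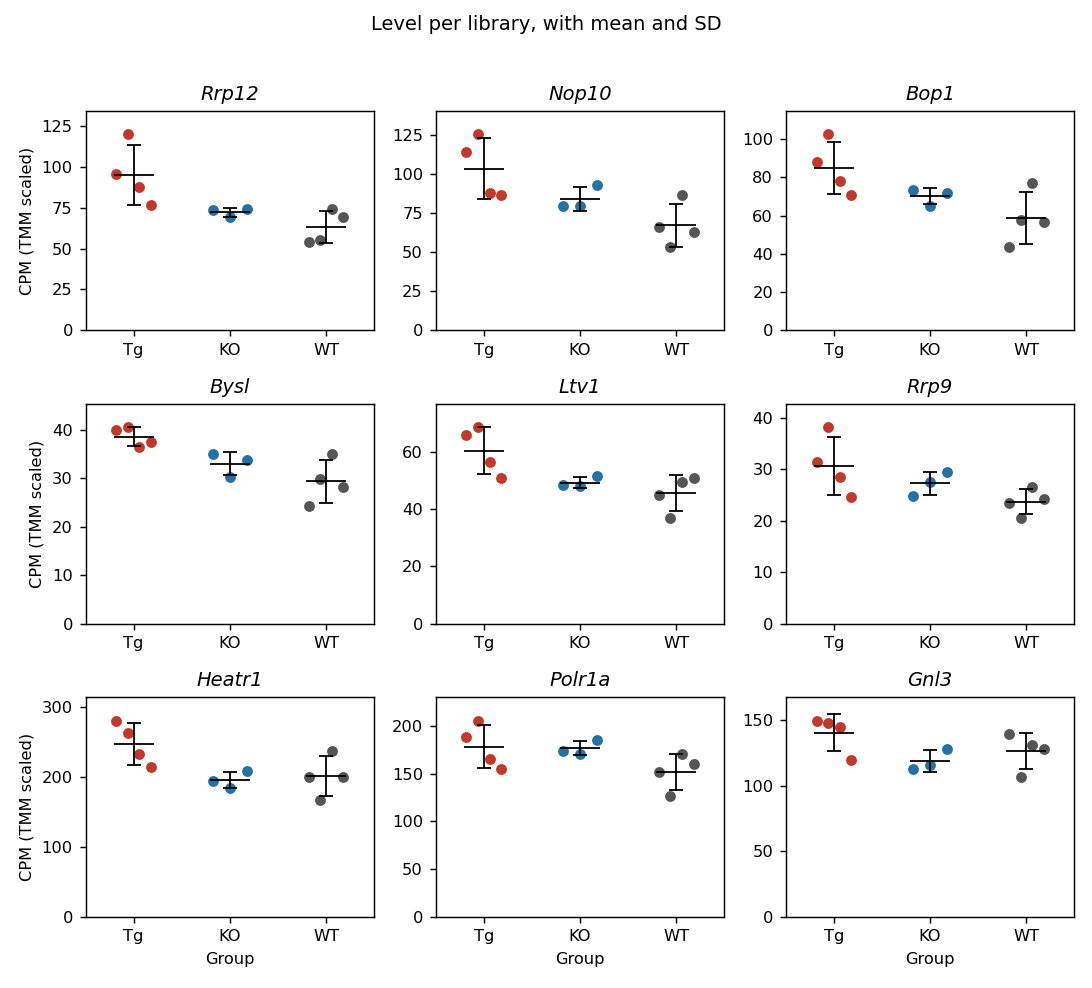
Each point is the CPM of 1 library (vertical axis, linear, from 0) in the Tg, KO and WT groups for 9 genes, with the mean and SD as bars. Tg lies fully above WT in the panels of Rrp12, Nop10, Bysl and Ltv1, and the groups overlap in the other 5.

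All 7 genes of small subunit assembly lay above 0 in Tg against WT, with a median of 0.21. Beside Rrp12, Bysl and Ltv1 were chosen for display after their values were seen. Bysl, needed for processing of 18S precursors, held 39.96, 40.5, 36.4 and 37.5 CPM in Tg, 34.9, 30.3 and 33.8 in KO and 24.2, 29.9, 35.1 and 28.1 in WT. All 4 Tg libraries lay above all KO and WT libraries. Its log2 fold change was 0.40 in Tg against WT (SE 0.108, adjusted p = 0.0606, quasi-likelihood test of edgeR). Exons of Ccnd3, a gene at 175 CPM on the opposite strand, cover 9.37% of those of Bysl, and the strand setting of the counting is not given in the sources used here. Ltv1, an export factor of the 40S particle, held 65.9, 68.6, 56.6 and 51.0 CPM in Tg, 48.5, 48.0 and 51.5 in KO and 45.02, 37.0, 49.6 and 50.9 in WT. Tg replicate 4 and WT replicate 4 were nearly equal. Its log2 fold change was 0.41 in Tg against WT (SE 0.116, adjusted p = 0.0675). Nat10, the 18S acetyltransferase, had 0.21, Tsr1, a GTPase-like factor of late 40S maturation, 0.18, and the processome proteins Utp20 and Nop14 0.15 and 0.13, none of which passed.

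The 10 genes of large subunit assembly all lay above 0 in Tg against WT, with a median of 0.29, and 5 had an unadjusted p under 0.05. Bop1, which forms the PeBoW complex with Pes1 and Wdr12, held 88.1, 102.6, 78.2 and 70.6 CPM in Tg, 73.2, 65.2 and 71.7 in KO and 43.6, 57.8, 77.0 and 56.8 in WT. WT replicate 3 exceeded Tg replicate 4, and the other WT libraries lay below all Tg libraries. Its log2 fold change was 0.53 in Tg against WT (SE 0.158, adjusted p = 0.0784, quasi-likelihood test of edgeR), against 0.24 for Pes1 and 0.12 for Wdr12. Bop1 had 0.14 in Tg against WT and -0.15 in KO against WT without the 4 libraries with Xist and Y-linked reads. Mrto4, a placeholder on the 60S particle, had 0.42, Rrs1, of 5S particle recruitment, 0.40, Nop2, an rRNA methyltransferase, 0.33, and Rrp1b, related to yeast Rrp1 of early 60S processing, 0.31. Ebna1bp2, Nop16 and Noc2l, counterparts of yeast 60S factors, had 0.27, 0.22 and 0.15. Samd11, a gene at 0.262 CPM, shares 20.9% of the exon bases of Noc2l on the opposite strand.

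The 4 genes of abundant nucleolar proteins had a median of 0.01 in Tg against WT. Ncl, nucleolin, averaged 1432 ± 174 CPM in Tg, 1412 ± 159 in KO and 1453 ± 224 in WT, with a log2 fold change of -0.02 in Tg against WT (95% interval -0.31 to 0.26). Npm1, nucleophosmin, averaged 1028 ± 126 CPM in Tg, 1134 ± 147 in KO and 1105 ± 179 in WT, with -0.10 in Tg against WT (95% interval -0.40 to 0.19). Npm1 has processed copies in the genome, so that its reads could have been divided among them. Ddx21, an RNA helicase of rDNA transcription, had 0.04, and Gnl3, nucleostemin, 0.15. Gnl3 held 149.6, 148, 144 and 119.8 CPM in Tg, 113, 116 and 128 in KO and 139, 107, 131 and 128 in WT. Tg replicates 1 to 3 exceeded all KO and WT libraries, and Tg replicate 4 lay among them.

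Read per kilobase of exon, levels in WT differed between genes by far more than the groups did. Exon length was the union of exons over all annotated transcripts, 2665 bases for Npm1 and 10188 for Ncl. The order of genes and the values with exon length therefore depend on the annotation. Npm1 led with 415 ± 67.3 CPM per kilobase in WT (SD, n = 4), before Ncl with 143 ± 21.96 and Ddx21 with 71.3 ± 10.1. Lowest were Wdr12 with 8.12 ± 1.17, Rrp9 with 8.09 ± 0.843 and Bysl with 7.61 ± 1.16. Among neighbours in this order, the WT libraries did not overlap between Npm1 and Ncl or between Ncl and Ddx21, and they overlapped between all others. Across the 40 genes, the log2 fold change in Tg against WT was lower at higher mean CPM (Spearman's rho -0.467), where over the 16776 annotated genes tested rho was 0.0262. With exon length rho was -0.366 over the 40 genes and -0.0518 over those 16776. These are descriptions across genes, which are not independent replicates.

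**Figure D3:**
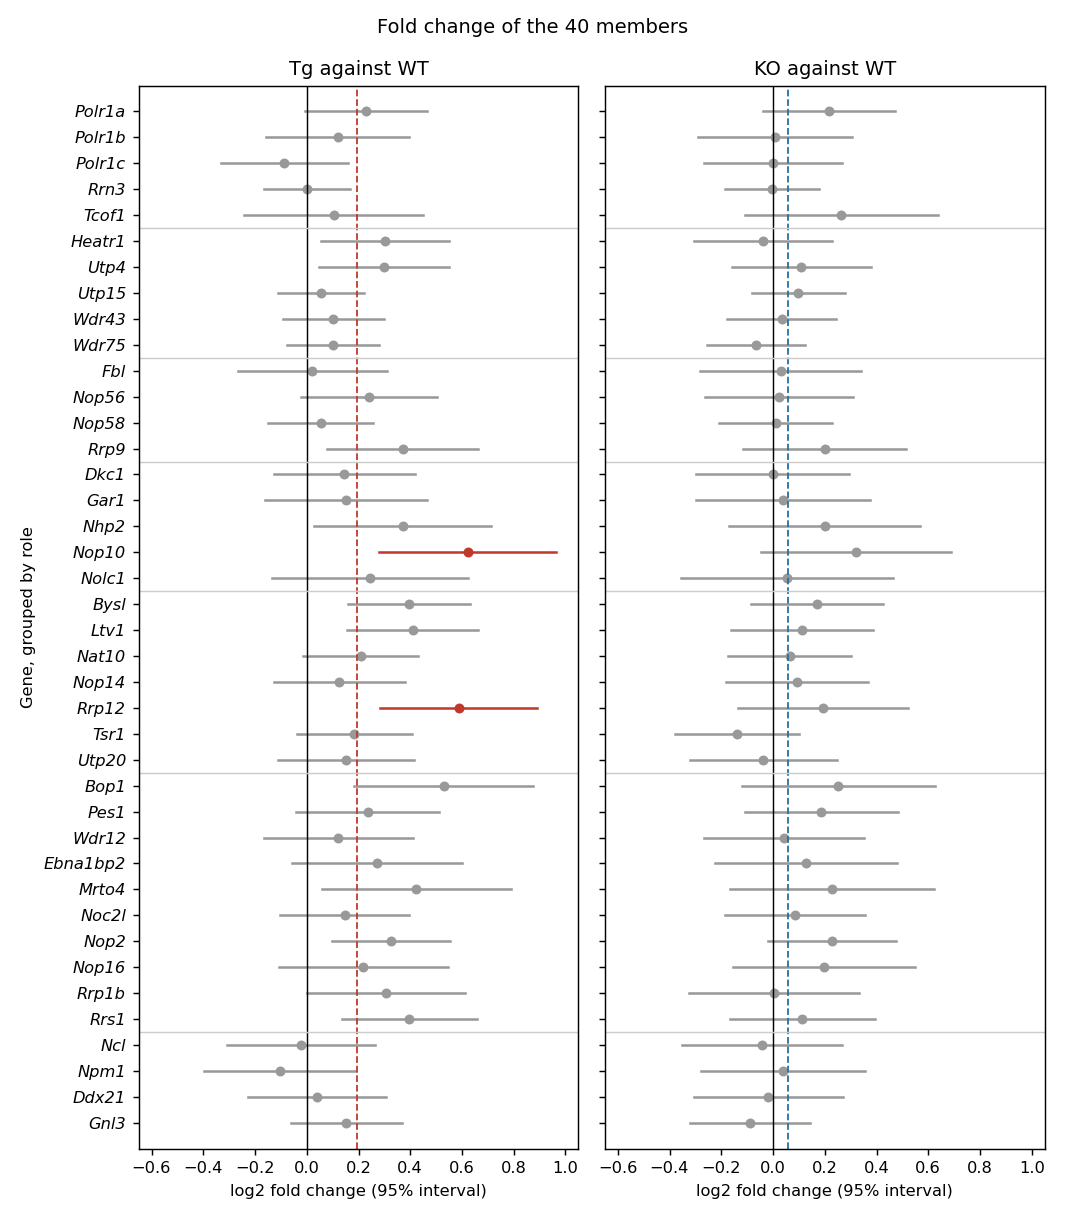
Points give the fitted log2 fold change of each of the 40 genes (rows, by role) and lines its 95% interval, in panels for Tg against WT and KO against WT. In the Tg against WT panel 37 points lie right of 0, and in the KO against WT panel every interval includes 0.

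The comparison of KO with WT asked whether loss of Phf6 changes these transcripts. None of the 40 passed in either direction by edgeR's quasi-likelihood test, where 0.00582% of all genes tested were called higher and 0.0175% lower. None had an unadjusted p under 0.05 (3.33% of all genes tested did so higher in KO and 3.75% lower), none separated the groups (3.79% lay fully above WT and 3.71% below), and DESeq2 and limma-voom called 0. A total of 30 lay above 0, against 48.8% of all genes tested, with a median log2 fold change of 0.06 and a range of -0.14 to 0.32. The 95% intervals of the 40 genes together reached from -0.38 to 0.69, so changes of that size are not shown to be absent. Nop10 had the highest value, 0.32 (SE 0.168, adjusted p = 0.734), and Tsr1, whose exons overlap those of Srr on the opposite strand over 32.3% of their bases, the lowest, -0.14 (SE 0.110, adjusted p = 0.834). By role, the medians were 0.16 for large subunit assembly, with 10 of 10 above 0, 0.09 for small subunit assembly, 0.05 for box H/ACA genes, and between -0.03 and 0.03 for the other 4. The median was 0.10 without KO replicate 1 and 0.12 without WT replicate 3. Without WT replicate 3, 37 genes lay above 0 and 7 had an unadjusted p under 0.05, a share not counted over all genes tested in that fit. Without KO replicate 3 the median over the 40 was -0.01 with 18 above 0. Without WT replicate 2 it was -0.01 with 20 above 0. Without the 4 libraries with Xist and Y-linked reads it was -0.06 with 12 above 0. Over all genes tested the medians of these fits were -0.019, -0.0036 and 0.012 in that order.

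Tg was also set directly against KO, which tests the difference between the 2 Phf6 genotypes. The contrasts share libraries, so their values are given side by side. None of the 40 passed by edgeR's quasi-likelihood test, where 2.63% of all genes tested were called higher and 3.06% lower in Tg, and DESeq2 and limma-voom called 0. A total of 35 lay above 0 (52% of all genes tested), with a median of 0.14 and a range of -0.16 to 0.39, and 6 had an unadjusted p under 0.05, all higher in Tg, against 10.7%. These were Tsr1, Heatr1, Rrp12, Ltv1, Gnl3 and Rrs1. In 3 genes, Heatr1, Bysl and Rrp12, the Tg libraries lay fully above the KO libraries, which 9.8% of all genes tested did. Rrp12 had 0.39 in Tg against KO (SE 0.150, adjusted p = 0.153, quasi-likelihood test of edgeR), 0.59 in Tg against WT and 0.19 in KO against WT (SE 0.149). Tsr1, chosen after its values were seen, had 0.32 in Tg against KO (SE 0.110, adjusted p = 0.114), 0.18 in Tg against WT and -0.14 in KO against WT. Without Tg replicate 2 the median was 0.05 and 28 genes lay above 0, and with KO replicate 3 left out it was 0.22. The 6 at an unadjusted p under 0.05 became 2 without Tg replicate 1, Tg replicate 2 or KO replicate 1. They became 1 without KO replicate 2 and 9 without WT replicate 3. In these fits and those that follow, the share of all genes tested at that threshold was not counted. Such shifts are not shown to be particular to the 40. Within Tg and within KO, libraries with a higher Y-linked sum had a lower mean log2 CPM of the 40 genes. The Y-linked level is thus tied to the level compared, and a fit with it as a covariate is not a cleaner estimate. In that fit, a setting chosen after seeing the data, the 6 became 21, with 40 above 0 and a median of 0.30, and none passed. Without the 4 libraries with Xist and Y-linked reads they became 3, with 29 above 0 and a median of 0.09.

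The 40 genes moved together from library to library. Their mean log2 CPM was 6.92, 7.05, 6.77 and 6.61 in Tg, 6.65, 6.68 and 6.82 in KO and 6.65, 6.39, 6.83 and 6.63 in WT, so that the groups overlapped. Their summed share of all counts was 0.597% to 0.732% in Tg, 0.632% to 0.720% in KO and 0.567% to 0.758% in WT. Tg replicate 2 held the highest value of all 11 libraries for 30 genes, and WT replicate 2 the lowest for 30. Tg replicate 4 was the lowest Tg library for 34 genes, KO replicate 3 the highest KO library for 36, and WT replicate 3 the highest WT library for 33. The number of genes above every WT library was 30, 35, 12 and 5 in Tg replicates 1 to 4. It was 2, 2 and 17 in KO replicates 1 to 3. These counts for single libraries were not taken over all genes tested, so they have no background share beside them. Without Tg replicate 2 the median in Tg against WT was 0.12, and without WT replicate 2 it was 0.11.

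Deviations from the group means were correlated with a sign above 0 in 774 of 780 gene pairs. The mean Pearson's r was 0.736 over the 11 libraries. Over all genes tested the mean was 0.000878, but values above and below 0 cancel in it. It is therefore no baseline for a list of like genes, and no other list was measured in this way. Nolc1 followed the mean of the 40 most closely (r = 0.996), before Pes1 (0.991) and Nhp2 (0.988). Utp15 (0.344), Bysl (0.379), Rrn3 (0.408) and Bop1 (0.606) followed it least. These values share libraries and depth and are descriptions.

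**Figure D4:**
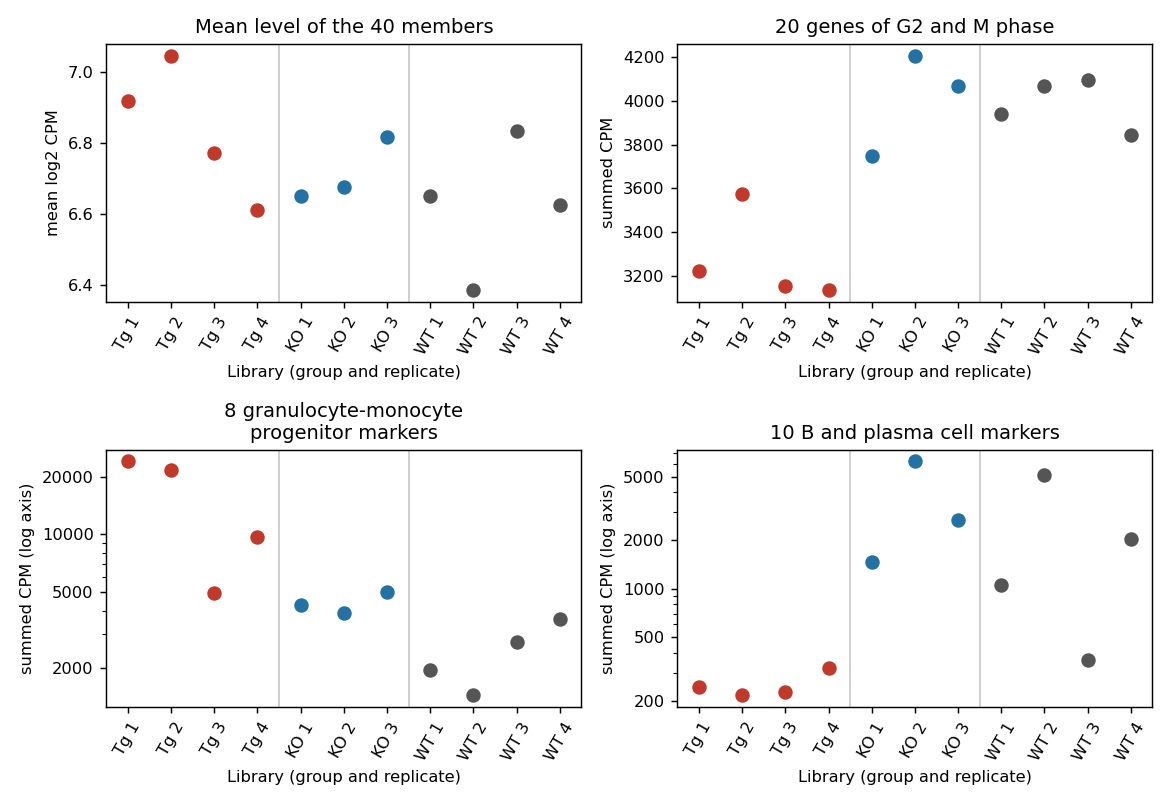
Each point is 1 library in the Tg, KO and WT groups, with the mean log2 CPM of the 40 genes and the summed CPM of G2 and M phase, granulocyte-monocyte progenitor and B and plasma cell genes (the last 2 on log axes) on the vertical axes. The mean of the 40 genes overlaps between the groups, and the granulocyte-monocyte progenitor sum is above every WT library in all 4 Tg libraries.

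Markers of other cell types moved with Tg as well, and their part in the values above was not tested. The summed level of 8 granulocyte-monocyte progenitor genes, none of which was at 0 in a group, was 4920 to 24149 CPM in Tg, 3870 to 5008 in KO and 1441 to 3609 in WT, and 6 of the 8 rose in Tg against WT. Tg replicates 1 and 2 held the highest sums, 24149 and 21699 CPM, and the highest means of the 40 genes. Tg replicate 3, with the lowest sum of the Tg libraries, 4920 CPM, had a higher mean of the 40 genes than Tg replicate 4, with 9686 CPM. The sum of 10 B and plasma cell genes was 216 to 321 CPM in Tg, 1458 to 6229 in KO and 358 to 5133 in WT, and 2 of the 10 fell in Tg against WT. Of mature neutrophil genes 1 of 7 tested rose, and 2 of 9 T and NK cell, 3 of 9 tissue macrophage, 2 of 10 erythroid and 0 of 7 megakaryocyte genes fell. The neutrophil sum was 48.9 to 599 CPM in Tg, 33.9 to 68.2 in KO and 11.4 to 107 in WT, and Ly6g, the gene of that list that was not tested, was at 0 in all Tg libraries. The T and NK cell sum was 5.28 to 7.28 CPM in Tg, 12.9 to 16.8 in KO and 9.77 to 19.5 in WT, the macrophage sum 32.9 to 131, 41.95 to 146 and 46.7 to 223, and the erythroid sum 25.5 to 72.5, 82.0 to 119 and 58.5 to 197 in that order. The megakaryocyte sum was 232 to 404, 82.6 to 173 and 145 to 326 CPM. Of the 7 megakaryocyte genes 5 lay above 0 in Tg against WT and none passed. Of 10 LSK markers none passed in Tg against WT. In Tg against KO 1 megakaryocyte gene and 1 LSK marker rose, where 2.63% of all genes tested did.

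**Figure D5:**
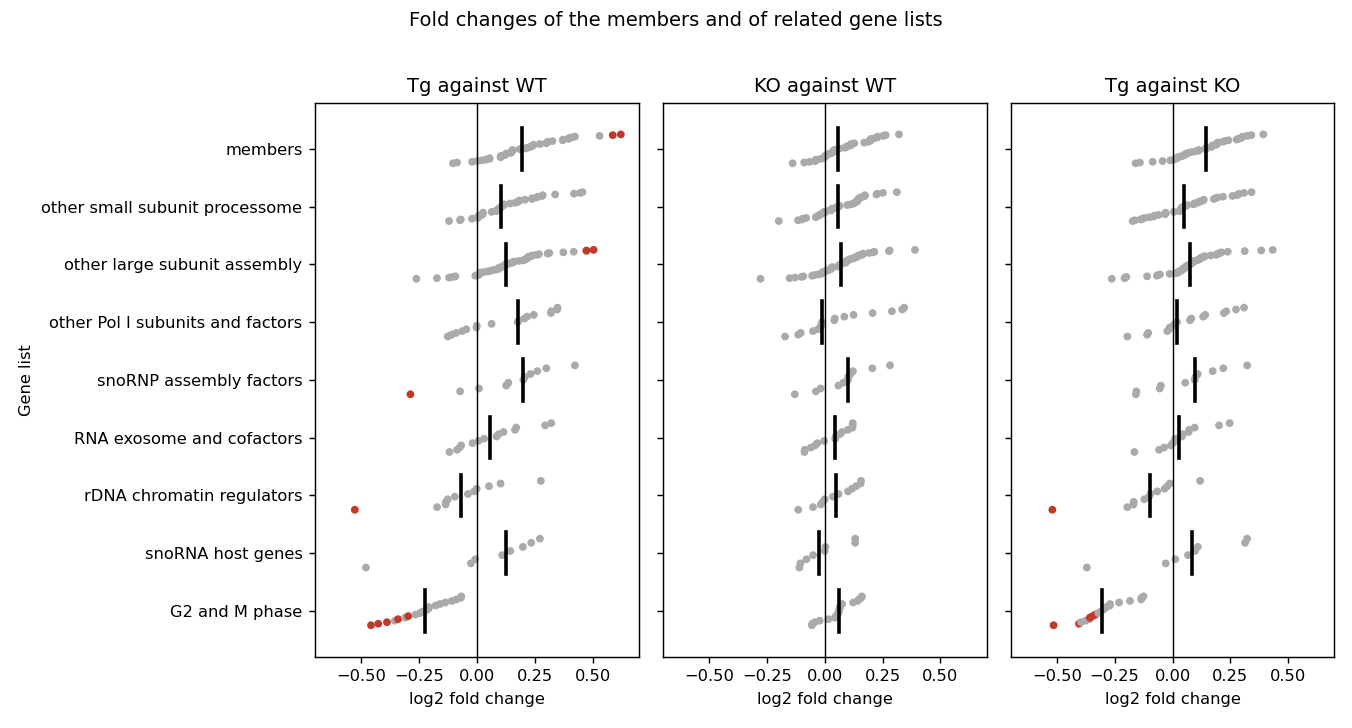
Fitted log2 fold changes of single genes (points) are shown by list (rows, the 40 genes at the top) in panels for Tg against WT, KO against WT and Tg against KO, with black bars at the medians and genes that passed in red. The lists of other small and large subunit factors lie mostly above 0 in Tg against WT, and all 20 G2 and M phase genes lie below it.

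Genes of the same pathway outside the 40 were read from lists. Of 39 other small subunit processome genes 35 lay above 0 in Tg against WT, with a median of 0.11, and 0 passed by edgeR's quasi-likelihood test, 9 having an unadjusted p under 0.05. Of 48 other large subunit assembly genes 42 lay above 0, with a median of 0.13, and 2 rose. Rrp15, a 60S processing factor, rose by 0.50 (SE 0.111, adjusted p = 0.0292), with 36.1 to 44.9 CPM in Tg and 24.2 to 34.4 in WT. Tma16, a factor bound to the 60S particle in yeast, rose by 0.47 (SE 0.114, adjusted p = 0.0394), with 39.8 to 47.8 CPM in Tg and 26.9 to 33.6 in WT. Rrp15 lost its call without Tg replicate 1, Tg replicate 2 or WT replicate 1, 2 or 4 (edgeR adjusted p up to 0.0964). Tma16 lost it without Tg replicate 1 or 2, KO replicate 2 or any WT replicate (up to 0.125). Without the 4 libraries with Xist and Y-linked reads, the fold changes of Rrp15 and Tma16 were 0.25 and 0.46 and neither passed.

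Of 17 other Pol I subunits and factors 10 lay above 0 in Tg against WT and none passed, with 2 at an unadjusted p under 0.05. Ubtf, the rDNA activator, averaged 241.5 ± 17.1 CPM in Tg, 220.3 ± 2.05 in KO and 214 ± 21.97 in WT, with a log2 fold change of 0.18 in Tg against WT (SE 0.082, adjusted p = 0.238, quasi-likelihood test of edgeR). Of 11 snoRNP assembly factors tested 9 lay above 0. Snu13, the 15.5K protein of box C/D particles, fell by 0.29 (SE 0.067, adjusted p = 0.0348), at 66.8 to 81.4 CPM in Tg and 86.5 to 91.5 in WT. Its call was kept only without Tg replicate 4 or WT replicate 3 and lost without any of the other 9 libraries (edgeR adjusted p up to 0.0970). Of 14 exosome genes 9 and of 8 snoRNA host genes 5 lay above 0, and none passed.

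Among regulators, Myc averaged 339.6 ± 45.1 CPM in Tg, 360.7 ± 44.6 in KO and 327 ± 60.7 in WT, with a log2 fold change of 0.05 in Tg against WT (SE 0.143, adjusted p = 0.867, quasi-likelihood test of edgeR). Its sign turned without Tg replicate 1 or WT replicate 2. In the Myc network list Mxd4, a repressor that competes for the Myc partner Max, fell by 0.42 in Tg against WT (SE 0.076, edgeR adjusted p = 0.0151) and by 0.52 in Tg against KO (adjusted p = 0.00578), the only 1 of 11 genes to pass in either contrast. Its libraries held 68.6 to 78.4 CPM in Tg, 99.1 to 112 in KO and 92.99 to 108 in WT. Of 12 rDNA chromatin regulators 3 lay above 0, and Ezh2, the H3K27 methyltransferase, fell by 0.53 in Tg against WT (SE 0.089, edgeR adjusted p = 0.0127) and by 0.52 in Tg against KO (adjusted p = 0.0120), a call lost without KO replicate 3 (0.0554). It held 130.1 to 159 CPM in Tg, 195 to 209 in KO and 185 to 235 in WT. The call of Mxd4 in Tg against WT was lost without Tg replicate 1 (0.0524). In Tg against KO, without the 4 libraries with Xist and Y-linked reads, Mxd4 had -0.50 (edgeR adjusted p = 0.0502) and Ezh2 -0.52 (0.0568), and neither passed. Of 9 genes of ribosome surveillance and the p53 axis 5 lay above 0 and none passed.

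All 20 genes of the G2 and M phases lay below 0 in Tg against WT, with a median of -0.23, and 5 fell. The 3 with the lowest p were Nusap1 (-0.46, SE 0.071, adjusted p = 0.00977), Kif11 (-0.39, SE 0.064, adjusted p = 0.0122) and Top2a (-0.43, SE 0.082, adjusted p = 0.0187), all by edgeR's quasi-likelihood test. Their summed level was 3135 to 3576 CPM in Tg, 3748 to 4207 in KO and 3842 to 4094 in WT, with no overlap between Tg and either other group. In Tg against WT Top2a lost its call without Tg replicate 1, Tg replicate 2 or WT replicate 2 (edgeR adjusted p up to 0.0629), and Nusap1 and Kif11 kept theirs without any 1 library. Without the 4 libraries with Xist and Y-linked reads, none of the calls of Rrp15, Tma16, Snu13, Mxd4, Ezh2, Nusap1, Kif11 and Top2a held in Tg against WT (adjusted p 0.229 to 0.613), and their directions were unchanged. Against KO the same 5 passed, all lower in Tg. There Kif11 lost its call without Tg replicate 1 or any KO replicate (up to 0.0950) and Top2a without these or Tg replicate 2 (up to 0.0888). With those 4 libraries left out, Nusap1 kept its call against KO (edgeR adjusted p = 0.0411), and Kif11 (0.0773) and Top2a (0.0744) lost theirs. In KO against WT none of these lists held a gene that passed.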

How the data were processed

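The authors deposited raw counts per gene symbol for all 11 libraries. Per the labels' protocols, RNA of individual mice was prepared with a NEB Ultra RNA kit and sequenced as paired reads on a NextSeq 500. FastQC, Trimmomatic, STAR, HTSeq and the build mm10 are listed in the submitters' processing notes. Versions, annotation, strand setting and filters were not given in the sources used here. All libraries were fitted together in edgeR 4.0.16 (R 4.3.3) with TMM factors and filterByExpr, without covariates, and tested by its quasi-likelihood test with Benjamini-Hochberg adjustment over all 17183 genes tested (call at adjusted p under 0.05). SE was the absolute fold change over the square root of F, and 95% intervals from a t quantile. CPM are TMM scaled and given as mean ± SD. The common biological coefficient of variation was 0.272. Coordinates and exon lengths, the latter as the union over all transcripts of a gene, were read from GENCODE M21, on the mm10 assembly GRCm38. The members and lists were chosen with earlier results of these data known. Values per library were given for genes called and, for each role without a call, the gene with the lowest p. Of each other list up to 3 called genes with the lowest p were named, with Myc and Ubtf always given. In these lists 3 symbols were matched through older names. Alternatives were DESeq2 1.42.0, limma-voom 3.58.1, other scaling factors and filters, a fit of only the groups compared, a replicate block, a test against a 1.2-fold change and each library left out. The fit was tested on simulated data. No column of the table was left unmapped. Libraries of a group differed by at least 26.1 times the sampling variance (chi-square per degree of freedom), so none was counted as a duplicate. P-values measure the spread between libraries, which the labels give as individual mice. Figures were drawn with matplotlib 3.10.9.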

Additional observations from a re-analysis of the deposited data

Results flagged for a closer look

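A total of 82 groups of 4 libraries were tested for 1 library far from the other 3, by Dixon's ratio of the gap to the range, and 2 were flagged. Chance flags about 1 in 20 groups. Both were WT replicate 3, the highest WT library for 33 of the 40 genes. Utp4 stood at 66.6 CPM there (ratio 0.837), and Utp15 at 75.02 CPM (ratio 0.961). The cause was not tested.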

How the results depend on the processing

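The number of the 40 genes that rose in Tg against WT was 2. It was 7 with DESeq2, 1 with limma-voom and 4 with a filter of 2 CPM in 3 libraries. In these fits 2.97% of 30397, 1.99% of 17183 and 3.58% of 12954 genes rose, the 30397 including any gene without an adjusted p from DESeq2. The number among the 40 was 0 in the fit of only the groups compared and in the test against a 1.2-fold change. Of all genes tested 1.2% and 1.09% rose there. With each library left out the number among the 40 was 0 to 7, where 0.733% to 3.62% of all genes tested rose. It was 2 with RLE, upper quartile and library total scaling and with no filter. Of all genes tested 2.62%, 2.53%, 2.35% and 1.5% rose in these fits in that order. Of 2 settings chosen after seeing the data, the Y-linked level as a covariate gave 11, where 3.84% of all genes tested rose. That level ran against the mean of the 40 genes within Tg and within KO, so this fit is not a cleaner estimate. Without the 4 libraries with Xist and Y-linked reads the median was 0.014, against 0.027 over all genes tested. That last fit has a lone WT library, the highest WT library for 33 of the 40 genes, assumed to vary like the other groups. No gene fell, and none passed in KO against WT or Tg against KO, in any setting. Same-numbered libraries of Tg and WT correlated at -0.206 to 0.00735 and of KO and WT at -0.0790 to 0.0959. Those of Tg and KO correlated at -0.245 to 0.0761. Differently numbered libraries of different groups ran from -0.344 to 0.308. No pairing by number showed, but so few values cannot exclude one. With the replicate block, 0 of the 40 rose in Tg against WT. Calls over all genes were 118 higher and 103 lower in that fit, against 436 and 410. DESeq2, given 30397 genes, called 903 higher and 916 lower in Tg against WT. In KO against WT it called 55 and 50, where edgeR, over 17183 genes, called 1 and 3. With each library left out the median ran from 0.11 to 0.27 in Tg against WT, from -0.01 to 0.12 in KO against WT and from 0.05 to 0.22 in Tg against KO. Signs turned only for values that had not passed. With each library left out, Myc in Tg against WT ran from -0.058 to 0.16, Heatr1 in KO against WT from -0.12 to 0.042, Ubtf in KO against WT from -0.017 to 0.090 and Polr1a in Tg against KO from -0.061 to 0.077. Without the 4 libraries, Myc in Tg against WT was -0.000360, Polr1a in Tg against KO -0.00845, and in KO against WT Ubtf was -0.10, Rrp12 -0.028 and Bop1 -0.15. With library totals Polr1a in Tg against KO was -0.00641. Over all settings, 98 values of single named genes lost a call and 5 gained one with their direction unchanged, 14 turned sign and 803 kept both. The causes were not tested. At 8 residual degrees of freedom the 95% intervals of the 40 genes in KO against WT reached 0.69, which limits what a missing call shows.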
